A study of Homo sapiens with 11 samples.

Results

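The ephrin, slit and netrin guidance genes were taken as every probe set annotated to an Eph receptor (EPHA or EPHB with a digit), an ephrin (EFNA or EFNB with a digit), SLIT1 to SLIT3, ROBO1 to ROBO4, UNC5A to UNC5D, NTN1, NTN4 or DCC. These were 35 of 19775 named genes, read by 83 of the 54675 probe sets on the array. They were measured in IMR32, an established human neuroblastoma line that carries extra copies of MYCN, on 11 Affymetrix arrays of total RNA. Untransduced cells were collected at 0 h (no virus, 2 arrays). The other cells received lentivirus with the non-targeting hairpin SHC002 (control virus, 1 array at each of 24, 48 and 72 h) or with a hairpin against MYCN (shMYCN, 2 arrays, A and B, at each of 24, 48 and 72 h). All cells were IMR32 in the same serum-containing medium, so the results concern 1 line and 1 hairpin against MYCN. The comparison addressed how transcript levels differed between cells given the MYCN hairpin and cells given the control hairpin as time passed.

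Ephrins are ligands held on the cell surface, the A class by a lipid anchor and the B class by a transmembrane segment, and Eph receptors are the receptor tyrosine kinases that bind them where cells touch. SLIT proteins are secreted and repel axons and migrating cells through ROBO receptors. Netrins are secreted cues that attract through DCC and repel through the UNC5 receptors, and DCC and UNC5 proteins are also known as dependence receptors, which can signal for cell death when no ligand is bound. Neuroblastoma arises from the sympathetic branch of the neural crest, whose cells use these cues while they migrate and extend axons.

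Deposited signals were linear intensities, scaled by the authors to a common array mean of 100, and signals of different probe sets cannot be ranked against each other. Array medians ran from 14.9 to 16.7. The brightest probe set of MYCN, the target, read 4567 to 5624 on the 6 arrays labelled shMYCN and 4507 to 5390 on the 5 others. None of the 10 MYCN probe sets was called by limma in the mean comparison (0 at an unadjusted p under 0.05). Against no virus 1 of them was called (2 at an unadjusted p under 0.05). Relative to control virus, shMYCN therefore names a label here and not a measured loss of transcript. A pair of other MYCN probe sets, with mean signals of 451 and 251, rose within shMYCN from 24 to 72 h by 1.35 ± 0.25 and 1.26 ± 0.25 (limma adjusted p = 0.0106 and 0.0133), and the change of each was not called against that of control virus (1.48 ± 0.44 and 1.20 ± 0.43, limma adjusted p = 0.147 and 0.223). Whether replicate arrays are of separate cultures is not spelled out in the labels, and the p-values measure the spread between arrays, which may be technical. Adrenergic neuroblast markers were present, with 7 of 8 measured genes above the dim level and TH below it, and their summed signal ran from 7470 to 7651 without virus, from 6725 to 8060 with control virus and from 6830 to 7970 in shMYCN. Of these markers, TBX2 (-0.37) and DBH (-0.47) were lower and CHGA (0.32) higher in the mean comparison given next. Of 5 leukocyte and endothelial markers, PTPRC, CD14, CDH5 and CD3E were at or below the dim level. PECAM1 was above it, with signals of 16.6 to 25.0. Mesenchymal and Schwann-like markers (9 measured, 5 above the dim level, PRRX1, CD44, S100B and SOX10 at or below it) summed to 4662 to 4820 without virus, 4714 to 5354 with control virus and 3440 to 4668 in shMYCN. Of these, SNAI2, YAP1, VIM and FN1 were lower and COL1A1 higher in the same comparison, and the part of both marker lists in the guidance-gene results was not tested.

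A gene was represented by its brightest probe set, and 22 of the 35 genes had a mean signal above the dim level of about 14.8 and were tested. EPHA7 passed this level only through its shMYCN arrays. In the mean of the 3 shMYCN minus control virus differences (at 24, 48 and 72 h), 10 of the 22 passed limma's test at an adjusted p under 0.05 (45.5%), 9 higher and 1 lower. Of all 11865 genes tested 37.9% passed, 22.2% higher and 15.8% lower, so the share of guidance genes called lay near that of genes at large. Of the genes called, 58.4% were higher, and 46.3% under median scaling. The genes that rose were UNC5C, UNC5A, SLIT2, SLIT1, EFNA2, EFNA3, EFNB3, EPHA7 and EPHB6, and the gene that fell was UNC5B. By family, the called genes were 3 of 4 tested netrin receptors, 2 of 3 SLITs, 0 of 2 ROBOs (1 at an unadjusted p under 0.05, ROBO1), 0 of 1 netrin (none at an unadjusted p under 0.05), 2 of 4 ephrin-A ligands, 1 of 2 ephrin-B ligands, 1 of 3 EphA receptors and 1 of 3 EphB receptors. The median log2 difference was 0.18 over the 22 genes and 0.037 over all genes tested. Each hour had a single control array, and the count of 10 was 11 without that of 24 h, 6 without that of 48 h and 6 without that of 72 h. RNA was taken from whole cultures, in which fewer cells of a kind and less RNA per cell cannot be told apart.

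**Figure D1:**
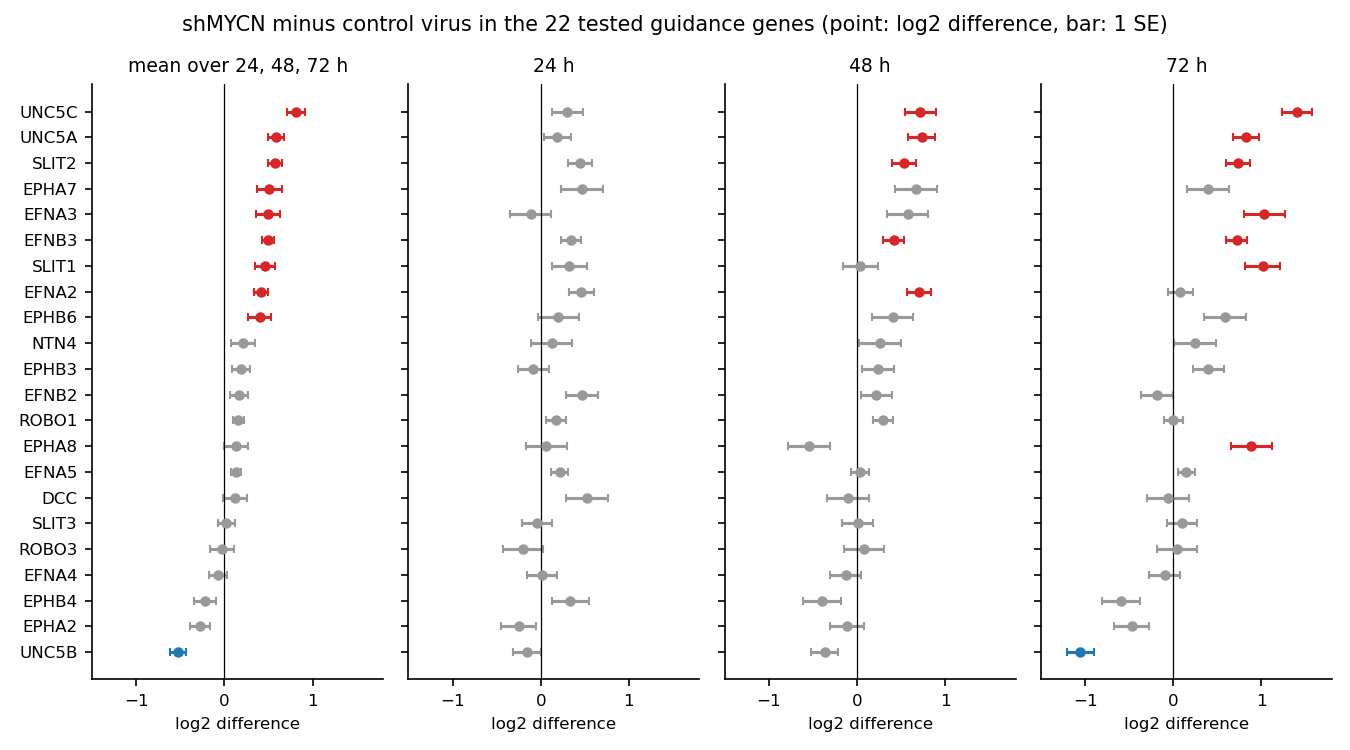
Log2 differences (shMYCN minus control virus, horizontal axes) of the 22 tested guidance genes at 24, 48 and 72 h and as the mean of the 3, with points for the fitted difference and bars of 1 SE. UNC5C lies farthest right at 72 h (1.40) and UNC5B farthest left (-1.05), while no gene passed the test at 24 h.

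At 72 h and in the mean comparison, the netrin receptors held both the largest rise and the largest fall of the tested guidance genes. UNC5C, a repulsive netrin receptor, gave signals of 146.6 and 124.1 without virus and 119.4, 136.3 and 131.1 with control virus at 24, 48 and 72 h. In shMYCN it read 145.4 and 156.9 at 24 h, 198.3 and 277.5 at 48 h, and 369.3 and 376.9 at 72 h. The 24 h arrays therefore overlapped those without virus, and the 4 later shMYCN arrays lay above all 5 others. At 72 h UNC5C was 2.65-fold higher than control virus (log2 1.40 ± 0.17 SE, limma adjusted p = 1.09e-04), after 0.72 ± 0.17 at 48 h (limma adjusted p = 0.0156). The mean difference was 0.81 ± 0.10 (limma adjusted p = 8.61e-05), and 0.51 over 24 and 48 h alone, still called (limma adjusted p = 0.015).

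UNC5B, a relative of UNC5C that also acts in growing blood vessels, moved the other way. Its signal was 606.6 and 595.0 without virus and 637.5, 481.2 and 443.2 with control virus at 24, 48 and 72 h. In shMYCN it was 549.8 and 592.2 at 24 h, 434.0 and 313.5 at 48 h, and 197.2 and 213.6 at 72 h. Both 72 h values lay under every other array, while the 24 h values fell within the range of the arrays without shMYCN. UNC5B was 2.08-fold lower than control virus at 72 h (log2 -1.05 ± 0.15, limma adjusted p = 0.0003). The mean difference of -0.53 ± 0.09 (limma adjusted p = 0.0008) was -0.26 over 24 and 48 h alone and then not called (limma adjusted p = 0.128).

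UNC5A, the third member of the family, is known mainly from neurons. It read 174.6 and 172.2 without virus and 174.3, 131.1 and 164.6 with control virus, against 197.4 and 204.4 at 24 h, 196.9 and 266.0 at 48 h and 292.1 and 316.2 at 72 h in shMYCN. All 6 shMYCN arrays lay above the 5 others. The log2 difference was 0.74 ± 0.15 at 48 h (limma adjusted p = 0.0078) and 0.82 ± 0.15 at 72 h (limma adjusted p = 0.0017). UNC5A, EFNA2 and EFNB3 were the 3 tested guidance genes whose shMYCN arrays all exceeded the others, and none had all shMYCN arrays below them. Of all genes tested, 8.42% were separated in this way upward and 6.52% downward.

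DCC, the attractive netrin receptor, gave low signals, from 12.2 to 28.4, and its mean difference was 0.12 ± 0.14 (limma adjusted p = 0.516). NTN4, a netrin of basement membranes, ranged from 12.6 to 28.3 with a mean difference of 0.21 ± 0.14 (limma adjusted p = 0.247). NTN1, the founding netrin, and UNC5D were below the dim level and were not tested.

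The other probe sets of the UNC5 genes can be set beside these values, from a fit of all 41091 probe sets with 1 symbol. Both further UNC5B probe sets fell at 72 h, by 1.44 and 0.96 on the log2 scale. The first of them read 468.6 and 429.6 without virus, 506.4, 456.1 and 364.4 with control virus, and 421.5, 417.6, 192.7, 288.4, 123.2 and 124.4 in shMYCN (24 h A and B, 48 h A and B, 72 h A and B). One further UNC5C probe set rose by 1.25 at 72 h, from 37.8 and 47.3 without virus and 29.7, 41.0 and 26.7 with control virus to 87.6 and 83.2. In that fit 12.5% of all probe sets, dim ones included, passed the test at 72 h.

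**Figure D2:**
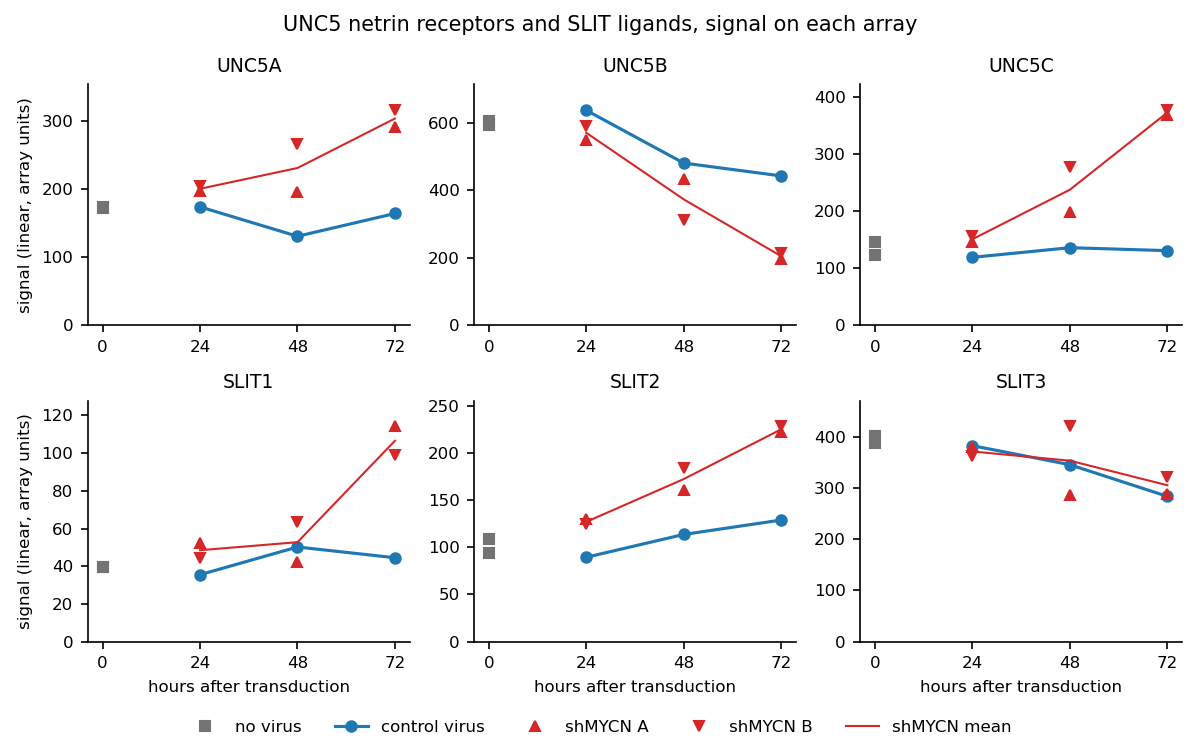
Signal (linear array units, vertical axes from 0) of netrin receptor and SLIT genes against hours after transduction, with grey squares for no virus, blue circles for control virus, red triangles for shMYCN A and B and a red line for their mean. The shMYCN values of UNC5C climb to 369.3 and 376.9 at 72 h, while those of UNC5B drop to 197.2 and 213.6.

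Since UNC5A and UNC5C both rose, the 120 bases before the start of each are shown, from RefSeq (GRCh38.p14), 5′ to 3′ on the gene's strand, with each CG dinucleotide in capitals. UNC5A lies on the plus strand (chr5:176810439-176810558) and UNC5C on the minus strand (chr4:95548974-95549093).
UNC5A: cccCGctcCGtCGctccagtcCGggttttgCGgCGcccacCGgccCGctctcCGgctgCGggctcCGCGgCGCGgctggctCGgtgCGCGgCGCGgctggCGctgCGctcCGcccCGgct
UNC5C: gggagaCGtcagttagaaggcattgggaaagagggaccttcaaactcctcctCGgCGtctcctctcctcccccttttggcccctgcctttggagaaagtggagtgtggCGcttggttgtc
The UNC5A stretch holds 23 CG dinucleotides and the UNC5C stretch 4.

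Of the SLIT ligands, 2 of 3 rose in the mean comparison, where 22.2% of all genes tested rose. SLIT2 read 109.0 and 94.5 without virus and 89.5, 113.7 and 129.0 with control virus. In shMYCN it read 129.6 and 124.6 at 24 h, 160.5 and 184.5 at 48 h, and 222.2 and 228.4 at 72 h. One 24 h array fell under the highest control virus value and the other just exceeded it, and all later shMYCN arrays were above it. SLIT2 was called at 48 h (0.54 ± 0.14, limma adjusted p = 0.0207), at 72 h (0.73 ± 0.14, limma adjusted p = 0.0017) and in the mean (0.57 ± 0.08, limma adjusted p = 1.98e-04). The other pair of SLIT2 probe sets above the dim level gave mean differences of 0.53 and 0.54, both called.

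SLIT1 differed late. Its signals were 39.8 and 39.5 without virus and 35.5, 50.2 and 44.5 with control virus, then 52.5 and 44.5, 42.1 and 63.4, and 114.2 and 99.0 in shMYCN at 24, 48 and 72 h. Both 72 h arrays stood clear of every other array, whereas the 24 and 48 h arrays overlapped the controls. The 72 h difference was 1.02 ± 0.20 (limma adjusted p = 0.0023). The mean of 0.46 ± 0.11 (limma adjusted p = 0.0084) was 0.18 over 24 and 48 h alone, where it was not called (limma adjusted p = 0.425).

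SLIT3 ranged from 283.9 to 420.7 with overlapping groups and a mean difference of 0.02 ± 0.10 (limma adjusted p = 0.882). ROBO1, a receptor of all SLITs, ranged from 857.2 to 1124.5 and was not called against control virus (mean 0.16 ± 0.07, limma adjusted p = 0.079). ROBO3, which sets how commissural axons respond at the midline, ranged from 13.9 to 35.5 with a mean difference of -0.03 ± 0.13 (limma adjusted p = 0.883). ROBO2 and the endothelial receptor ROBO4 were below the dim level. Of this pathway, 2 of 3 ligand transcripts and 0 of 2 tested receptor transcripts passed the test against control virus, a contrast between genes that was not itself tested. Of all genes tested 37.9% passed, and whether counts this small differ from that share was not tested.

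The same stretch before the start is shown for the SLIT genes that rose, again from RefSeq (GRCh38.p14) with CG dinucleotides in capitals, for SLIT2 on the plus strand (chr4:20251785-20251904) and SLIT1 on the minus strand (chr10:97185960-97186079).
SLIT2: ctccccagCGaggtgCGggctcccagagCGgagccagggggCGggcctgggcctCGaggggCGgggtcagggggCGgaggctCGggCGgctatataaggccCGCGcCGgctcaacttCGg
SLIT1: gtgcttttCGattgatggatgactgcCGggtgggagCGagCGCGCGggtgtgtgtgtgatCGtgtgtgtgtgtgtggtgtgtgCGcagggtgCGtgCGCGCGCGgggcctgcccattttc
Each stretch holds 13 CG dinucleotides. MYC proteins are known to bind the E-box CACGTG, which reads the same on both strands. Among 40 RefSeq windows of 30 matched guidance genes (250 bases before to 50 after a start), 1 held CACGTG (2.5%), against 2548 of all 35116 windows (7.26%). Of the 9 genes that rose in the mean comparison, 8 had windows (10 in all, 3 of them of EPHA7), none of which held it. The median number of CG dinucleotides was 22 per window for the guidance genes, 25.5 for those that rose and 14 for all windows.

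Among the ephrin-A ligands, EFNA2 and EFNA3 rose at different hours. EFNA2 read 236.8 and 225.8 without virus and 219.0, 210.8 and 282.3 with control virus, against 311.4 and 302.7, 403.4 and 308.9, and 288.4 and 310.9 in shMYCN at 24, 48 and 72 h. All 6 shMYCN arrays exceeded the 5 others, narrowly at 72 h. The difference was 0.70 ± 0.14 at 48 h (limma adjusted p = 0.0066), 0.08 ± 0.14 at 72 h (limma adjusted p = 0.701) and 0.41 ± 0.08 in the mean (limma adjusted p = 0.0021). Over 24 and 72 h alone the mean was 0.27 and not called (limma adjusted p = 0.0649). The other pair of EFNA2 probe sets had mean signals of only 3.06 and 3.02, with mean differences of -0.078 and -0.083, neither called.

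EFNA3 read 16 and 31.2 without virus and 29.6, 25.9 and 22.4 with control virus. Its shMYCN signals were 30 and 22.5 at 24 h, 47.3 and 45.4 at 48 h, and 56.0 and 69.4 at 72 h. The 4 later shMYCN arrays lay above all others, and the 24 h arrays among them. The difference was -0.12 ± 0.23 at 24 h and 1.03 ± 0.23 at 72 h (limma adjusted p = 0.908 and 0.0057). Its mean of 0.50 ± 0.13 (limma adjusted p = 0.0133) was 0.80 over 48 and 72 h alone. Over 24 and 48 h alone it was 0.23 and not called (limma adjusted p = 0.385). It was also not called over 24 and 72 h alone (limma adjusted p = 0.0595).

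EFNA4 and EFNA1 lie beside EFNA3 on chromosome 1, with starts 15.1 kb and 49.0 kb from that of EFNA3 (RefSeq, GRCh38.p14). EFNA4 ranged from 46.0 to 64.1 with a mean difference of -0.07 ± 0.10 (limma adjusted p = 0.613), and EFNA1 was below the dim level. EFNA5 ranged from 356.6 to 438.6, with a mean difference of 0.13 ± 0.06 that missed the threshold (limma adjusted p = 0.0856). A pair of other bright EFNA5 probe sets read highest in shMYCN at 72 h (324.2 and 307.0, and 247.6 and 274.4). Arrays without the MYCN hairpin read at most 261.5 and 212.1, and the shMYCN arrays of 48 h overlapped them. With the mean of all its probe sets EFNA5 was still not called, at 72 h or in the mean comparison. Of the ephrin-A genes, then, 2 of 4 tested were higher, beside 22.2% of all genes tested. The neighbours of EFNA3 were not called or not tested.

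EFNB3, a transmembrane ephrin of the nervous system, was higher in the mean comparison (0.49 ± 0.07, limma adjusted p = 1.92e-04). It read 192.6 and 167.4 without virus and 176.2, 205.1 and 179.4 with control virus, then 227.6 and 227.2 at 24 h, 277.7 and 279.8 at 48 h, and 296.5 and 314.3 at 72 h in shMYCN. The groups did not overlap at any hour. Its difference was 0.34 ± 0.12 at 24 h, not called (limma adjusted p = 0.277), 0.41 ± 0.12 at 48 h (limma adjusted p = 0.0313) and 0.72 ± 0.12 at 72 h (limma adjusted p = 0.0007). The 48 h call was lost with no filter on dim genes (limma adjusted p = 0.0514) and without any single shMYCN array of 24 or 72 h (limma adjusted p = 0.0531 to 0.0599). With the mean of all EFNB3 probe sets the difference was 0.34 at 48 h and 0.22 at 72 h, neither called (limma adjusted p = 0.167 and 0.289). Another EFNB3 probe set, with a mean signal of 22.8, gave a mean difference of -0.02 ± 0.15 and was not called. EFNB2, a ligand of arterial endothelium and neural crest paths, ranged from 88.4 to 173.1 with overlapping groups (mean 0.17 ± 0.10, limma adjusted p = 0.229), and EFNB1 was below the dim level.

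**Figure D3:**
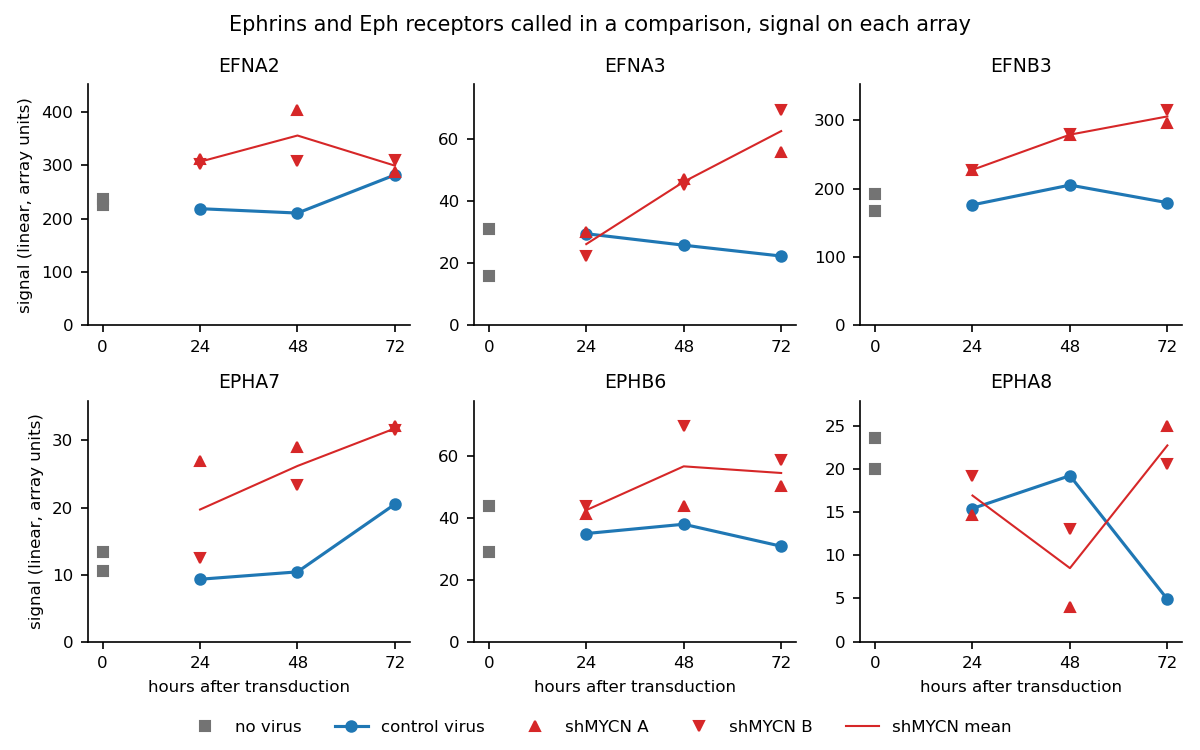
Signal (linear array units, vertical axes from 0) of ephrin and Eph receptor genes against hours after transduction, drawn with grey squares for no virus, blue circles for control virus, red triangles for shMYCN A and B and a red line for their mean. The EFNB3 values of shMYCN lie above all others at each hour, and those of EFNA3 part from the control virus at 48 and 72 h.

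The Eph receptors were mostly dim, with 3 of 9 EphA and 3 of 4 EphB genes above the level for testing. EPHA7, a receptor that shapes cortical and retinal maps, read 13.3 and 10.6 without virus and 9.3, 10.4 and 20.5 with control virus, against 26.9 and 12.5, 29.1 and 23.3, and 32.1 and 31.5 in shMYCN at 24, 48 and 72 h. One 24 h array fell among the controls and the other 5 shMYCN arrays exceeded them. The mean difference was 0.51 ± 0.14 (limma adjusted p = 0.0128), with no single hour called. Its means without virus and with control virus lay under the dim level, so EPHA7 was tested only because its shMYCN arrays were brighter. With no filter on dim genes this call was kept, and that against no virus was lost (limma adjusted p = 0.0579). The mean difference of EPHA7 was not called over 24 and 72 h alone (limma adjusted p = 0.0799).

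EPHB6, a receptor whose kinase domain lacks activity, read 43.7 and 28.8 without virus and 34.9, 37.9 and 30.8 with control virus, and 41.2 and 43.7, 43.7 and 69.5, and 50.2 and 58.7 in shMYCN. The groups overlapped through the first array without virus. The mean difference was 0.40 ± 0.14 (limma adjusted p = 0.0372). It was not called over 24 and 72 h alone, over 24 and 48 h alone, or without any single shMYCN array of 24 or 72 h. The call also ended under quantile normalization (limma adjusted p = 0.0537), median scaling or no filter on dim genes. EPHA8 was called at 72 h alone (0.89 ± 0.24, limma adjusted p = 0.0136), where its control array read 4.9 and the shMYCN arrays 24.9 and 20.5. The other 4 arrays without the MYCN hairpin read 15.4 to 23.6 and the mean difference was 0.13 ± 0.14 (limma adjusted p = 0.467), so the 72 h call rests on 1 low control value. It was also lost without shMYCN array A of 72 h (0.80, limma adjusted p = 0.0681).

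The single E-box among the guidance windows lies before EPHA8, 149 bases upstream of its start on the plus strand (chr1:22563323-22563362, RefSeq, GRCh38.p14), shown in 40 bases with the motif in capitals.
EPHA8: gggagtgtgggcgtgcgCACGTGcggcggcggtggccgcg
A match in this window is a description of the sequence and not a measured binding site.

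EPHB3 ranged from 87.6 to 140.7 and was not called (mean 0.18 ± 0.10, limma adjusted p = 0.184). EPHA2, an epithelial receptor, gave a mean difference of -0.28 ± 0.11 (limma adjusted p = 0.0758). EPHB4, the venous partner of EFNB2, gave -0.22 ± 0.12 (limma adjusted p = 0.187). Genes below the dim level were EPHA1, EPHA3, EPHA4, EPHA5, EPHA6, EPHA10 and EPHB1. Together with EFNA1, EFNB1, NTN1, ROBO2, ROBO4 and UNC5D these made 13 untested genes with 34 probe sets, whose mean signals ran from 0.745 to 14.755 and single values from 0.1 to 25.1. In the unfiltered fit 2 of those 34 probe sets passed the test in the mean comparison (beside 14.7% of all probe sets) and 1 against no virus (beside 10.8%). The brightest UNC5D probe set was lower (-0.42 ± 0.09, limma adjusted p = 0.0162), with 10.3 and 10.0 without virus, 19.5, 20.3 and 9.2 with control virus and 6.3 to 10.5 in shMYCN. An EPHA4 probe set was higher (0.25 ± 0.07, limma adjusted p = 0.0464), with 0.5 to 1.5 on the arrays without the MYCN hairpin and 1.7 to 7.1 in shMYCN. An NTN1 probe set was lower than without virus (-0.39 ± 0.09, limma adjusted p = 0.0339), where it read 13.9 and 11.9, against 4.5 to 7.0 in shMYCN, and 1.6 to 6.8 with control virus. No detection calls were used here, so whether signals this low differ from background was not tested. Just under the dim level stood EPHB1 (14.8) and EFNB1 (13.9), and just above it EPHA8 (16.3) and EPHB4 (19.1).

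The count of calls was larger at each later hour, though EFNA2 was called at 48 h and not at 72 h. At 24 h 0 of 22 guidance genes were called by limma (6 at an unadjusted p under 0.05, smallest adjusted p 0.212), with 0.708% of all genes called. At 48 h 5 were called, all higher (UNC5A, UNC5C, EFNA2, SLIT2 and EFNB3), where 10.1% of all genes were higher and 6.9% lower. At 72 h 8 were called, 7 higher (UNC5C, EFNA3, SLIT1, EPHA8, UNC5A, SLIT2 and EFNB3) and UNC5B lower. This is 36.4% of the 22, beside 34% of all genes (18.3% higher, 15.7% lower). Of the genes called at 72 h 53.7% were higher, and 37.4% under median scaling. The difference from control virus grew at each later hour in 8 of the 22 genes and fell at each later hour in 3. These counts have no share of all genes beside them and are a description only. The 48 h count was 8 without shMYCN array B of that hour (EFNB2, EPHA8 and ROBO1 added), and the 24 h count was 1 without either shMYCN array of 48 h, with EFNA2 called.

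Within shMYCN, 8 genes differed between 72 and 24 h, 6 higher and 2 lower, where 18.1% of all genes were higher and 18.3% lower. On the log2 scale UNC5B fell by 1.41 ± 0.13 (limma adjusted p = 1.23e-05) and UNC5C rose by 1.22 ± 0.14 (limma adjusted p = 6.95e-05). SLIT1 (0.93 ± 0.16), EFNA3 (0.90 ± 0.19), SLIT2 (0.75 ± 0.11), UNC5A (0.56 ± 0.12) and EFNB3 (0.40 ± 0.10) also rose, the last not called without shMYCN array 72 h B (limma adjusted p = 0.0615) or with the mean of all its probe sets (0.21, limma adjusted p = 0.197). Of all genes called in this comparison 49.7% were higher, and 31.3% under median scaling. EPHB4 fell by 0.58 ± 0.17 (limma adjusted p = 0.0224), from 25.5 and 19.5 to 8.0 and 11.5, and this call was lost without array A of either hour and with no filter on dim genes (limma adjusted p = 0.0561), and with the mean of all EPHB4 probe sets the difference was -0.17 (limma adjusted p = 0.526).

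Whether the change from 24 to 72 h differed between shMYCN and control virus was tested directly, and 3 genes were called. UNC5C differed by 1.10 ± 0.24 (limma adjusted p = 0.0166), EFNA3 by 1.15 ± 0.33 (limma adjusted p = 0.0491) and UNC5B by -0.90 ± 0.22 (limma adjusted p = 0.0248). Of all genes, 4.52% differed upward and 5.82% downward, an upward share of 43.7% of those called, and of 31.7% under median scaling. Leaving out single shMYCN arrays changed this count: it was 0 without 24 h A, 72 h A or 72 h B, 1 without 24 h B, and 8 without either 48 h array, the last with EFNA2, EFNB2, EPHB4, SLIT1 and UNC5A added.

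Against the arrays without virus, which share the shMYCN arrays with the comparisons above, 10 genes were called, 9 higher and 1 lower, where 17.7% of all genes were higher and 13.1% lower (57.4% of those called were higher, and 38.8% under median scaling). These included ROBO1 (0.24 ± 0.08, limma adjusted p = 0.0333), which read 895.1 and 857.2 without virus, 867.5, 883.2 and 1037.8 with control virus and 931.9 to 1124.5 in shMYCN, so the shMYCN arrays overlapped the control virus but not the cells without virus. The ROBO1 call was also lost under median scaling (0.15, limma adjusted p = 0.204), with no filter, with no variance trend and without shMYCN array 24 h B or 72 h A. UNC5B was again the gene that was lower (-0.74 ± 0.10, limma adjusted p = 0.0003). Only 5 calls were left without either of the no virus arrays, with UNC5A, SLIT1, EPHA7 and ROBO1 lost in both cases, EFNA3 lost without the first (0.32, limma adjusted p = 0.248) and EFNA2 without the second. Control virus against no virus gave 0 calls by limma (1 gene at an unadjusted p under 0.05, smallest adjusted p 0.918), with 0.0337% of all genes called.

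**Figure D4:**
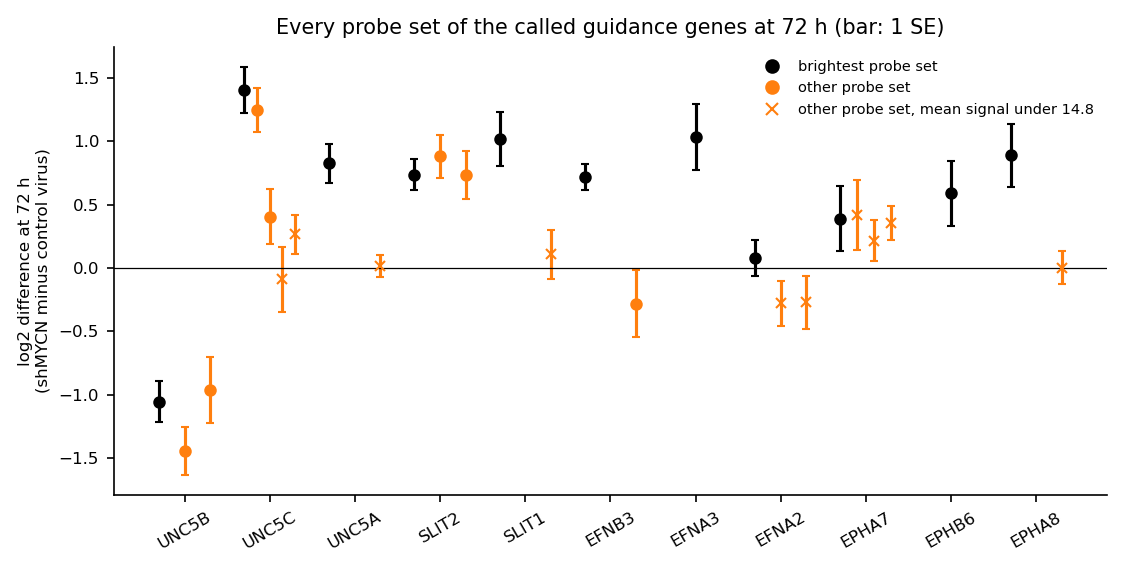
Log2 difference at 72 h (shMYCN minus control virus, vertical axis) for every probe set of the guidance genes called in the mean comparison or at 72 h. EPHB4 and ROBO1, called only in other comparisons, are not drawn. Black points are the brightest probe set of a gene, orange points its other probe sets, crosses those under the dim level and bars 1 SE. All 3 UNC5B probe sets lie below 0 (-1.05, -1.44 and -0.96) and all 3 bright SLIT2 probe sets above it (0.73, 0.88 and 0.73).

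The 10 genes called in the mean comparison had 16 other probe sets, on 8 of the genes, and 11 of these had a difference of the same sign as the brightest one. Of the 7 above the dim level, on 4 genes, 5 had the same sign and all 5 were called. The exceptions were the EFNB3 probe set given above and a UNC5C probe set with a mean signal of 15.8 and a mean difference of -0.03 ± 0.13. In that fit 14.7% of all probe sets were called, but that share includes dim probe sets. The genes were chosen because they were called, and their probe sets read the same RNA. The match is therefore not independent support.

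Genes that act with these cues were read from lists of their own in the mean comparison. Of the related ligands and coreceptors 3 of 8 tested genes rose and 0 fell (37.5% called, beside 37.9% of all genes), with a median log2 difference of 0.053 over the list: the UNC5 and ROBO binding proteins FLRT3 (0.64, limma adjusted p = 1.41e-04) and FLRT2 (0.45, limma adjusted p = 0.0124), and RGMB, a ligand of the DCC relative neogenin (0.29, limma adjusted p = 0.0176).

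Among kinases and actin regulators 3 of 13 rose and 2 fell (38.5% called, again near that share), among them FYN, a Src-family kinase of netrin and ephrin signalling (0.30, limma adjusted p = 0.0015), and the actin regulators ENAH (-0.29, limma adjusted p = 0.0018) and VASP (-0.51, limma adjusted p = 0.0051). Of the proteases and turnover genes, USP33, a deubiquitinase of ROBO1, rose (0.26, limma adjusted p = 0.0028), and ADAM10, the protease that sheds ephrins, fell (-0.25, limma adjusted p = 0.0171), of 4 tested, and the ubiquitin ligase CBL was not called (-0.20, limma adjusted p = 0.127). The median log2 difference was 0.056 over the kinases and actin regulators and -0.051 over the proteases and turnover genes, beside 0.037 over all genes tested.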

How the data were processed

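The authors deposited linear signal intensity values for every probe set on each of the 11 arrays, and MAS5 and GCOS are the tools listed, without versions, per the submitters' processing notes. Background correction, detection calls and the build behind the probe sets are not given in the sources used here. Averaged over its middle 96% of deposited values, each array gave 100. Probe sets were named through the platform annotation (41091 with 1 symbol, 1801 with several, 11721 unnamed here, 62 control probe sets left out), with 41037 symbols updated by Entrez number through RefSeq GRCh38.p14.

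Signals were taken as log2(signal + 16), which understates differences of dim genes. One mean per group (7 groups) was fitted with limma 3.58.1 in R 4.3.3 (eBayes with trend, 4 residual degrees of freedom) to 11865 genes, after the dimmest 40% of 19775 were left out, and to all probe sets with 1 symbol. All tests had 2 sides, and p-values were adjusted by Benjamini-Hochberg over all features fitted. The lone control virus array of each hour was taken to vary as the pairs do, whose log2 differences had SDs of 0.172 (no virus) and 0.181, 0.271 and 0.186 (shMYCN at 24, 48 and 72 h). The number of arrays limits the precision. Full values were given for guidance genes past the threshold in any of 8 comparisons, and for the 3 genes with the smallest p of each pathway list given; 1 such list is not reported here. The procedure was tested on simulated data. The members and lists were chosen with earlier results of these data known. Promoter windows came from RefSeq GRCh38.p14 by symbol. Alternatives were other offsets, filters, normalizations, probe set rules, variance models, the array letter as a block, and leaving out each array. Leaving out a control virus array took its hour out of the mean comparison.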

Additional observations from a re-analysis of the deposited data

Results flagged for a closer look

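For 3 genes the change from 24 to 72 h differed between shMYCN and control virus by the test of that difference. UNC5C differed by 1.10 on the log2 scale, as its control virus signal went from 119.4 to 131.1 while its shMYCN signal went from 145.4 and 156.9 to 369.3 and 376.9. EFNA3 differed by 1.15, with control virus values of 29.6 and 22.4 and shMYCN values of 30 and 22.5 at 24 h and 56.0 and 69.4 at 72 h. UNC5B differed by -0.90, and its control virus signal also went down, from 637.5 to 443.2, while that of shMYCN went from 549.8 and 592.2 to 197.2 and 213.6. Each rests on 1 control virus array per hour. The call was lost in 10 of 17 alternatives for EFNA3, in 6 of 18 for UNC5B and in 4 of 18 for UNC5C. For EFNA3 these included an offset of 1 and median scaling (limma adjusted p = 0.071 and 0.0505).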

How the results depend on the processing

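The 44 results for single guidance genes (13 genes) kept their direction in all 847 values recomputed under the alternatives and kept their call in 772. Other filters, the variance model, the letter block and leaving out an array outside the comparison cannot change a log2 difference. For those the direction was fixed in advance. The 44 results were chosen because they were called, so their calls could only be kept or lost. Most counts of called guidance genes stayed within 1.5 times those given above. With the dimmest 60% of genes left out, the count was 6 in the mean comparison, 5 at 72 h and 5 for shMYCN at 72 against 24 h. The called genes missing there (EFNA3, SLIT1, EPHA7, EPHA8, EPHB4 and EPHB6) were removed by the filter and not tested. Called genes that were still tested kept their calls. With the mean of all probe sets per gene it was 2 at 48 h, and there EFNA2 (0.085, limma adjusted p = 0.362) and EFNB3 (0.24, limma adjusted p = 0.0563) also lost their calls in the mean comparison. The count of genes whose change from 24 to 72 h differed was 0 with no filter and 1 without the variance trend. Leaving out each array gave 6 to 13 calls in the mean comparison, 0 to 1 at 24 h, 4 to 8 at 48 h, 7 to 11 at 72 h, 5 to 13 against no virus, 7 to 10 for shMYCN at 72 against 24 h, 0 to 8 for the difference in change and 0 for control virus against no virus. With the letter A or B as a replicate block the counts were 10, 0, 5, 8, 10, 9 and 2 in the same order, without the last, and EFNA3 lost its call for the difference in change (limma adjusted p = 0.0572). The A minus B differences correlated at -0.051, 0.038 and 0.100 between hours, and the labels do not say whether the letters mark matched series. Median scaling moved the median log2 difference of all genes by -0.11 at 72 h and by -0.10 for shMYCN at 72 against 24 h; under it, UNC5C at 72 h (1.29), UNC5B at 72 h (-1.17) and the other called guidance genes of these comparisons kept their direction and call.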
